A study of Homo sapiens with 14 samples.

Results

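The response to E2F1 activation was described in cells in which FOXO1 and FOXO3 had been knocked down, using 6 of the 14 arrays of the series. The cells were U2OS, a human osteosarcoma line, stably expressing ER-E2F1, in which the transcription factor E2F1 is fused to the ligand-binding part of the estrogen receptor. Lentiviruses carried the hairpin shFOXO33, the hairpin shFOXO707 or a scrambled sequence, and each FOXO hairpin was directed against FOXO1 and FOXO3 together. All cells spent 24 h with virus and 24 h without serum, then 6 h in serum-free medium that either held 20 nM 4-hydroxytamoxifen (OHT), the ligand of the fusion, or held none. The 6 arrays were chosen by their titles: 1 array without and 2 arrays with OHT for shFOXO33, and the same for shFOXO707. The change with OHT was taken within each hairpin and averaged over the 2 hairpins, and 8 arrays of scrambled cells, 4 without and 4 with OHT, served as the comparison. No array came from cells given OHT without ER-E2F1, so effects of the ligand itself and of E2F1 cannot be told apart. The labels leave unsaid whether the line was 1 clone and whether repeated arrays were separate cultures, so the spread on which the p-values rest is that between these arrays and may be technical.

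E2F1 binds DNA with a DP partner, is held in check by the retinoblastoma protein, and drives genes of DNA replication and cyclin E when it is free. At high activity it also induces genes of cell death. FOXO1 and FOXO3 are forkhead factors that are shut out of the nucleus by AKT when growth factors are present and that activate cell cycle inhibitors, apoptosis genes and metabolic genes in starved cells.

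Array signals were MAS5 intensities, which had a trimmed mean of 500 on every array. The median signal of the knockdown arrays was 141 and 143 without OHT and from 119 to 120 with OHT. Log2 signals correlated across the 7720 genes (genes are not independent of each other) at r from 0.992 to 0.994 for arrays of the same virus and treatment and at r from 0.956 to 0.958 for arrays of different hairpins with the same treatment. The 3'/5' ratio of ACTB, which rises as RNA degrades, was 2.04 and 1.95 on the shFOXO707 arrays with OHT and between 1.49 and 1.64 on the other 4 knockdown arrays, and its part in the results was not tested. Of the cell type lists, 4 of 8 epithelial, 1 of 12 blood cell, 3 of 8 neural and 7 of 11 osteoblast markers were measured. The summed signal of the osteoblast markers lay between 15300 and 23800 without OHT and between 9160 and 17400 with OHT, and the collagen gene COL1A1, the main matrix protein of bone, had signals from 7090 to 9610 on the 6 arrays. The single measured blood cell marker, CD3D, lay between 61.6 and 116, with a change of 0.13 ± 0.18 (SE) that did not pass the test.

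The hairpins' targets were themselves higher with OHT in knockdown cells. FOXO3 had a signal of 138 with shFOXO33 and 274 with shFOXO707 without OHT, then 290 and 325 on the shFOXO33 arrays and 853 and 766 on the shFOXO707 arrays with OHT. Every array with OHT lay above both arrays without it, and the shFOXO707 arrays with OHT stood well above the shFOXO33 ones. FOXO3 rose by 1.29 ± 0.08 (SE) on the log2 scale (limma, adjusted p = 1.55e-09), against a rise of 1.96 in scrambled cells, where the mean signal went from 449 to 1790. The knockdown response differed from the scrambled one by -0.67 (limma, adjusted p = 0.00117). FOXO3 with OHT therefore stood at 17.1% of the scrambled level with shFOXO33 and at 45.1% with shFOXO707, compared with 30.7% and 60.9% without OHT. FOXO1 went from 49.2 and 39.1 without OHT to 140 and 185 with shFOXO33 and to 218 and 254 with shFOXO707, again with no overlap. FOXO1 rose by 1.81 ± 0.13 (limma, adjusted p = 3.91e-09). With shFOXO33 and shFOXO707 it stood at 32.4% and 47.1% of the scrambled level with OHT, compared with 47.7% and 37.9% without OHT. A second FOXO1 probe set gave 20.3% and 40.6% with OHT, compared with 47.9% and 43.1% without OHT. The direction for shFOXO707 thus differed between the probe sets. For both targets the knockdown arrays with OHT thus carried less transcript than scrambled arrays with OHT. For FOXO3, shFOXO33 arrays with OHT stayed below, and shFOXO707 arrays above, the level of 449 in untreated scrambled cells. For FOXO1, every knockdown array with OHT lay above the mean of 103 in untreated scrambled cells. FOXO4, another forkhead factor of the family, was dim, with signals of 73.2 or less on all 6 arrays. E2F1 itself had signals of 199 and 219 without OHT and from 165 to 217 with OHT, a change of -0.18 ± 0.11 that did not pass the test. The labels do not say whether its probe sets read the transcript of the fusion.

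Of the 7720 genes tested, 1917 rose and 3720 fell with OHT in the mean of the hairpins (limma, Benjamini-Hochberg adjusted p under 0.05; genes past this threshold are referred to as called), which is 24.8% and 48.2% of the genes. The median change of all genes was -0.20 on the log2 scale, so a shift of this size is common to the table. Increases made up 34.0% of the calls. That share moved to 48.5% (2505 higher, 2659 lower) when the arrays were centred on their medians and to 39.8% with quantile normalization. Decreases outnumbered increases at 2-fold and increases outnumbered decreases at higher thresholds: 645 genes rose and 742 fell at least 2-fold, 162 rose and 69 fell at least 4-fold, 33 rose and 10 fell at least 8-fold, and 6 rose and 1 fell at least 16-fold. In 1476 genes the increase was also called with each hairpin alone (19.1% of all genes), as was the decrease in 2593 (33.6%). All 4 arrays with OHT lay above both arrays without it for 1599 genes (20.7%) and below both for 2877 (37.3%). Each array without OHT stood alone for its hairpin, and the fit assumed that it varied like the arrays of the other groups.

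The largest increase was that of HEY1, a basic helix-loop-helix repressor best known as a target of Notch signalling. Its signal was 248 with shFOXO33 and 261 with shFOXO707 without OHT, 11300 and 10100 with shFOXO33 and OHT, and 11000 and 10500 with shFOXO707 and OHT. The hairpins hardly differed at either state. HEY1 rose by 5.31 ± 0.07 on the log2 scale (limma, adjusted p = 1.36e-16), and a second HEY1 probe set gave 5.62. ID4, which blocks other basic helix-loop-helix factors, went from 82.2 and 159 to 2910 and 2740 with shFOXO33 and to 3420 and 3480 with shFOXO707, a rise of 4.58 ± 0.12, although another ID4 probe set gave 2.10. FA2H, the fatty acid 2-hydroxylase of sphingolipid synthesis, was near the floor of the array without OHT, at 13.5 and 22.8, and reached 485, 651, 777 and 920, so that its rise of 4.38 ± 0.17 depends on the added constant of 16. ABCG2, a drug efflux transporter of the cell membrane, went from 165 and 146 to 4170 and 3820 with shFOXO33 and to 2990 and 3120 with shFOXO707, a rise of 4.35 ± 0.06. In each of these genes the 4 arrays with OHT lay far above the 2 without.

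The other 8 of the 12 largest increases ran from 3.69 to 4.28. MYB, a proto-oncogenic transcription factor, went from 162 and 105 to between 2420 and 3470, with a second probe set at 2.27 in place of 4.28. TM6SF1, a multi-pass membrane protein, went from 59.4 and 58.0 to between 1370 and 1470, the tightest set of arrays among these genes. PLCL2, a phospholipase C relative without catalytic activity, went from 193 and 234 to between 3210 and 3810 and rose by 3.94 ± 0.06. DRD5, a dopamine receptor, went from 69.8 and 28.7 to between 880 and 1020. KLHL21, a substrate adaptor of a cullin ubiquitin ligase, reached 849 and 927 with shFOXO33 but 1590 and 1730 with shFOXO707, from 35.9 and 125, so the hairpins differed in level and not detectably in response (limma, adjusted p = 0.564 for the difference of responses, which was -0.55 ± 0.37). CITED1, a coactivator that binds CBP and p300, went from 46.2 and 88.7 to between 923 and 1270. CD83, a surface protein of activated immune cells, went from 242 and 282 to between 3000 and 4350. KCNK10, a background potassium channel, was at 13.0 and 46.4 without OHT and between 478 and 612 with it.

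**Figure D1:**
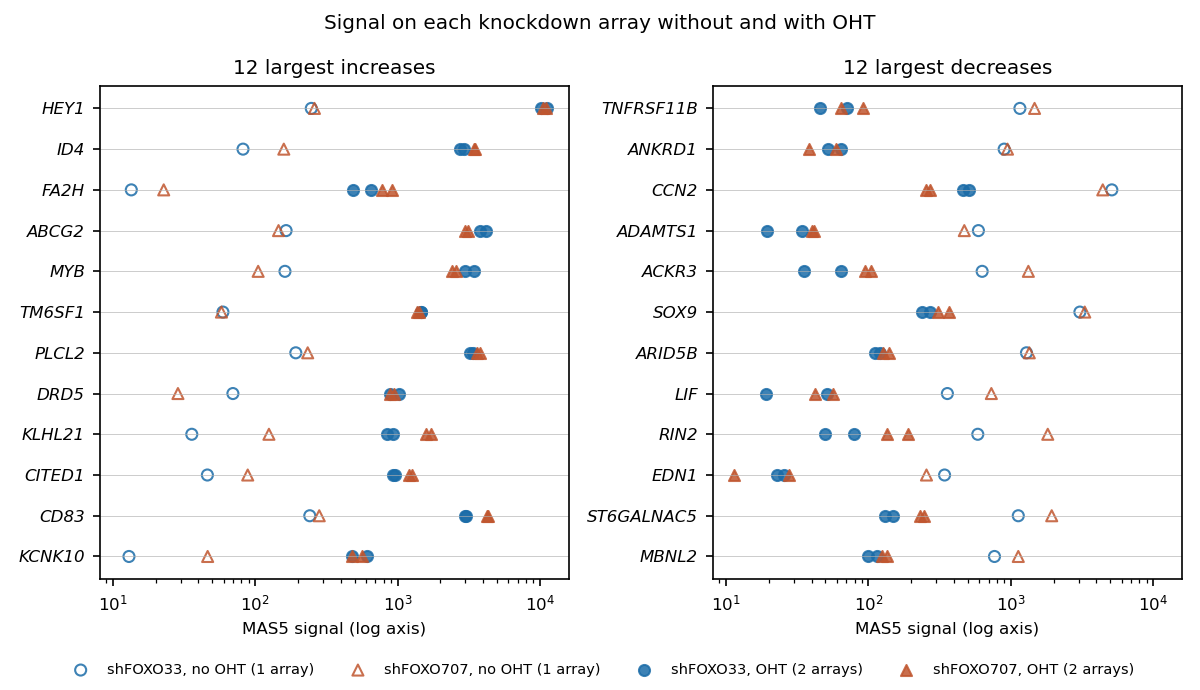
MAS5 signal on a log axis for the 12 genes that rose most and the 12 that fell most with OHT in the mean of the hairpins; each point is 1 array, open without OHT and filled with OHT, circles for shFOXO33 and triangles for shFOXO707. Open and filled points do not overlap for any gene, as the choice of genes required; HEY1 goes from 248 and 261 to 10100 or more and TNFRSF11B from 1160 and 1470 to 91.1 or less.

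The stretches before the transcription start were searched for letters that E2F factors are known to bind, TTTGGCGC, TTTCCCGC, TTTCGCGC and TTTGCCGC on either strand. Matches may overlap each other, and a promoter was counted by whether it held any. Of the 24 genes with the largest changes and the 2 cyclin E genes, 18 had an entry in the RefSeq promoter table (GRCh38.p14), and 2 of them held such letters in the 250 bases before a start. These are shown because both genes are among the largest increases. In CITED1 (minus strand, chrX:72307158-72307407) the match lies 13 to 6 bases before the start, and in PLCL2 (plus strand, chr3:16884705-16884954) it lies 246 to 239 bases before it. Capitals mark the match, and both stretches run 5′ to 3′ towards the start.
CITED1: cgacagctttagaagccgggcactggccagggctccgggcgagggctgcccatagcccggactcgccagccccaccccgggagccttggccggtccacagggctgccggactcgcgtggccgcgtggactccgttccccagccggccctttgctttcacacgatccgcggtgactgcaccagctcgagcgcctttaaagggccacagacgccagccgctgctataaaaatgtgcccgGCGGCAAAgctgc
PLCL2: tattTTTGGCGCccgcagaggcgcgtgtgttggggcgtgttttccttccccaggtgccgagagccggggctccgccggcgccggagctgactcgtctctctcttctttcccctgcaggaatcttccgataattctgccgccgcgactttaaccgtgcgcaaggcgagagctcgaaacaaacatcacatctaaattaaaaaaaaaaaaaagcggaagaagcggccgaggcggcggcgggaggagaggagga
Among all 35116 promoters of the table, 2.79% held a match in the same window, and among the 9775 promoters of measured genes 4.39% did. The share was 4.14% of 846 promoters of genes that rose at least 2-fold and 3.21% of 998 promoters of genes that fell at least 2-fold. The promoters of the genes with large increases thus held these letters about as often as those of all measured genes; a match is a description of the letters and not a site.

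The largest decrease was that of TNFRSF11B, or osteoprotegerin, the decoy receptor that osteoblasts secrete against RANKL. Its signal was 1160 and 1470 without OHT, 45.8 and 70.3 with shFOXO33 and OHT, and 91.1 and 63.8 with shFOXO707 and OHT. TNFRSF11B fell by 4.01 on the log2 scale (SE 0.23, limma, adjusted p = 4.41e-10), and a second probe set gave -2.82. ANKRD1 and CCN2, the best known target genes of the Hippo pathway effector YAP, followed. ANKRD1 went from 899 and 949 to 52.2, 64.4, 38.2 and 59.3, a change of -3.77 ± 0.14. CCN2, the matricellular connective tissue growth factor, went from 5130 and 4430 to 462 and 509 with shFOXO33 and to 271 and 256 with shFOXO707, a change of -3.68 ± 0.09. The arrays with OHT were more than 8-fold below the arrays without it in all 3 genes.

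The other 9 of the 12 largest decreases lay between -3.47 and -2.83. ADAMTS1, a secreted metalloprotease, went from 593 and 472 to between 19.4 and 41.6. ACKR3, a scavenging chemokine receptor, went from 630 and 1330 to between 35.6 and 104. LIF, a cytokine of the IL6 family, went from 359 and 731 to between 19.1 and 56.5, and EDN1, endothelin-1, from 343 and 256 to between 11.4 and 27.5. Several of these arrays with OHT are close to the level where the added constant of 16 shortens the measured change. ST6GALNAC5, a sialyltransferase, went from 1130 and 1940 to between 130 and 244. SOX9, the transcription factor of the chondrocyte lineage, went from 3060 and 3310 to between 240 and 370, a change of -3.37 ± 0.09, and ARID5B, a DNA-binding protein, went from 1290 and 1350 to between 112 and 139. RIN2, an activator of the GTPase RAB5, went from 587 and 1820 to between 49.3 and 189, with the shFOXO33 arrays below the shFOXO707 arrays at either state. MBNL2, a splicing regulator, went from 769 and 1130 to between 99.5 and 135.

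Genes of DNA replication and the G1/S transition moved in either direction. The list of E2F targets in the cell cycle and DNA replication had 61 measured genes, of which 27 rose and 22 fell, against 24.8% and 48.2% of all genes; the list's median was 0.02 and that of all genes -0.20. With arrays centred on their medians the counts were 32 and 16, against 2505 higher and 2659 lower of all 7720 genes. CCNE1, or cyclin E1, the activator of CDK2 at the entry to S phase, had signals of 541 and 979 without OHT, 5050 and 5260 with shFOXO33 and OHT, and 8460 and 7820 with shFOXO707 and OHT. It rose by 3.12 ± 0.07 (limma, adjusted p = 5.05e-15), a rise called larger than that in scrambled cells by 0.51 ± 0.08 (limma, adjusted p = 0.00159). CCNE2, or cyclin E2, went from 687 and 701 to between 5140 and 5520, a rise of 2.92 ± 0.06, while its rise in scrambled cells was 2.91. The hairpins gave nearly equal CCNE2 levels, and those of CCNE1 differed before and after OHT alike. SLBP, which binds histone mRNA, rose by 2.27 ± 0.04, EZH2, the histone H3 lysine 27 methyltransferase, by 2.11 ± 0.08, and DSCC1, a cohesion factor, by 1.75 ± 0.07. Other members moved little or fell. CDC6, a replication licensing factor and textbook E2F target, rose by 0.29 ± 0.06 in the mean; its signals were 1220 without and 1760 and 1810 with OHT for shFOXO33, and 1130 without and 1100 and 1200 with OHT for shFOXO707, so only the shFOXO33 arrays moved, and the difference of the responses was -0.52 (limma, adjusted p = 0.0304). The rise of CDC6 in the mean was lost when the hairpins were pooled.

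Of 16 cyclins, CDKs and CDK inhibitors, 8 rose and 6 fell, against 24.8% and 48.2% of all genes. CCND3, or cyclin D3, went from 1620 and 2020 to between 6970 and 7580, a rise of 2.01 ± 0.04. CCND2, or cyclin D2, went the other way, from 4560 to 2100 and 2060 with shFOXO33 and from 1770 to 425 on both arrays with shFOXO707. It fell by 1.57 (SE 0.04, limma, adjusted p = 9.32e-14), against a change of -0.60 in scrambled cells, and changed more with shFOXO707. Its 2 other probe sets gave mean changes of -1.29 and -0.56 in knockdown cells. CCND1, or cyclin D1, fell by 0.41 (SE 0.06), a call that was lost when the hairpins were pooled. CDKN1B, the inhibitor p27 and a described FOXO target, went from 1740 and 1250 to between 3630 and 4520. It rose by 1.47 ± 0.05 with FOXO1 and FOXO3 knocked down and by 1.46 in scrambled cells, a difference of 0.01 ± 0.06. Within the E2F, DP and retinoblastoma family, 3 of 11 members rose and 3 fell, 27.3% each, against 24.8% and 48.2% of all genes. E2F8, an atypical repressor of the family, went from 427 and 262 to between 860 and 1550, a rise of 1.77 ± 0.07, called larger than in scrambled cells by 0.52. TFDP1, the DP partner, rose by 0.84 ± 0.04, and RB1 rose by 1.04 ± 0.09 on its brightest probe set and by 0.08 on another. E2F5 changed by -1.08 ± 0.20. RBL2, the pocket protein p130, changed by -0.55 ± 0.11 in the mean, but by -0.92 with shFOXO33 and by -0.18 with shFOXO707.

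Apoptosis genes described as E2F1 targets included 7 of 17 that rose and 7 that fell, 41.2% each, against 24.8% and 48.2% of all genes. MAP3K5, the stress kinase ASK1, had signals of 185 with shFOXO33 and 423 with shFOXO707 without OHT, 2160 and 1940 with shFOXO33 and OHT, and 3980 and 4080 with shFOXO707 and OHT. It rose by 3.28 ± 0.06 (limma, adjusted p = 1.53e-15), and the level of each hairpin stayed apart from the other's. HRK, a BH3-only activator of cell death, went from 103 and 185 to between 1020 and 1540 and rose by 2.96 ± 0.10. BCL2, which opposes cell death, rose too, by 1.98 ± 0.10, as did APAF1, the core of the apoptosome, by 1.87 ± 0.16 and BCL2L11, or BIM, by 0.91 ± 0.10. TP73, a p53 relative and described E2F1 target, lay below the filter, at 15.3 and 1.37 without OHT and between 35.3 and 50.5 with it. CASP8, the initiator caspase of death receptors, went from 715 and 809 to between 155 and 179 and fell by 2.10 (SE 0.16). PMAIP1, or NOXA, changed by -1.63 ± 0.09, by -1.17 with shFOXO33 and by -2.10 with shFOXO707.

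Most p53 targets fell: 12 of 18 were lower (66.7%, against 48.2% of all genes) and 3 higher (16.7%, against 24.8%), and their median was -0.58, against -0.20. The median over the list, relative to untreated scrambled arrays, was already -0.30 with shFOXO33 and -0.40 with shFOXO707 without OHT, and lay between -0.90 and -1.10 with OHT. XPC and DDB2, which recognise DNA damage, changed by -1.69 ± 0.11 and -1.34 ± 0.09. FAS, a death receptor, went from 1060 and 939 to between 328 and 424 and fell by 1.37 (SE 0.07), and GADD45A, a growth arrest gene shared with the FOXO list, fell by 0.94 (SE 0.06).

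Of 27 measured FOXO targets, 8 rose (29.6%, against 24.8% of all genes) and 16 fell (59.3%, against 48.2%), with a median of -0.41, against -0.20. The list includes FOXO1 and FOXO3 themselves. CCNG2, an atypical cyclin linked to arrest, went from 1320 and 1500 to between 277 and 464 and fell by 1.85 (SE 0.10), much as in scrambled cells at -1.81. CAT, the peroxide-degrading catalase, went from 2590 to 1060 on both arrays with shFOXO33 and from 3480 to 2330 and 2350 with shFOXO707, so that the responses differed between the hairpins by 0.71 (limma, adjusted p = 0.000309). The KLF family factor KLF6 fell by 2.72 (SE 0.14). The response of 5 members, CCND1, CCND2 and FOXO3 among them, was called lower in knockdown than in scrambled cells, against 4.73% of all genes, and 0 were called higher, against 4.96% (limma; 9 lower and 3 higher at an unadjusted p under 0.05). With 1 common response of both hairpins 3 were called lower, and CCND1 was no longer among them (limma, adjusted p = 0.0932).

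Growth factor signalling genes moved in either direction, 11 of 25 up (44.0%, against 24.8% of all genes) and 12 down (48.0%, against 48.2%). RRAGD, a GTPase that ties amino acids to mTORC1, went from 1040 and 896 to between 4400 and 5350 and rose by 2.32 ± 0.07, and its relative RRAGA fell by 1.07 (SE 0.06). PHLPP1, a phosphatase that acts on AKT, went from 197 and 227 to between 1120 and 1370 and rose by 2.43 ± 0.09. PHLPP2 rose by 1.06 ± 0.07, at hairpin levels far apart: 267 to 589 and 592 with shFOXO33, and 1020 to 2090 and 2080 with shFOXO707; its call was lost when the hairpins were pooled. IRS1, the adaptor of the insulin receptor, fell by 1.55 (SE 0.09), against -0.92 in scrambled cells (limma, adjusted p = 0.00215 for the difference). Of 28 autophagy and lysosome genes 17 fell (60.7%, against 48.2% of all genes) and 7 rose (25.0%, against 24.8%). With centred arrays 12 fell and 8 rose, against 2659 lower and 2505 higher of all 7720 genes. WIPI1, SQSTM1 and ATG14, which act in building and loading the autophagosome, fell, with changes from -1.20 to -1.07, while TFEB, a master regulator of lysosomal genes, went from 150 and 212 to between 521 and 637 and rose by 1.55 ± 0.10.

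YAP/TEAD targets had the lowest median of the lists with more than 10 measured members, -1.19, with 11 of 17 lower (64.7%, against 48.2% of all genes) and 4 higher (23.5%, against 24.8%). Beside ANKRD1 and CCN2, CCN1, a second matricellular protein, went from 6100 and 5010 to 2210 and 2200 with shFOXO33 and to 1510 and 1570 with shFOXO707. AXL, a receptor tyrosine kinase, went from 6420 to 4850 and 4720 with shFOXO33 but from 1900 to 520 and 490 with shFOXO707, and another probe set gave a mean change of -0.24 in place of -1.15. ASAP1, an ARF GTPase activator, went against the list, from 591 and 391 to between 1100 and 1850, a rise of 1.55 ± 0.06.

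The TGF-beta and BMP list held 13 genes that rose and 11 that fell, of 28, or 46.4% and 39.3%, against 24.8% and 48.2% of all genes. ID3, a sister of ID4, went from 239 and 270 to between 2420 and 2660 and rose by 3.22 ± 0.07. Other ID genes differed: ID1 changed by -0.35 (limma, adjusted p = 0.00024), and ID2 rose by 1.20 with shFOXO33 and by 0.11 with shFOXO707. The ligand BMP2 went from 277 and 228 to between 1560 and 1690 and rose by 2.63 ± 0.09. A second ligand, BMP4, fell, from 1370 and 1460 to between 313 and 342, a change of -2.08 ± 0.06. TGFBR2, the type II receptor of TGF-beta, fell from 3240 to 856 and 885 with shFOXO33 and from 1450 to 260 and 257 with shFOXO707, a change of -2.15 ± 0.06. In scrambled cells TGFBR2 changed by -2.91, to a mean signal of 259. In the Notch pathway 5 of 16 members rose (31.2%, against 24.8% of all genes) and 6 fell (37.5%, against 48.2%). The ligands JAG1 and JAG2 rose by 1.65 ± 0.07 and 2.63 ± 0.09, while the receptor NOTCH2 changed by -0.83 ± 0.05, and ADAM17, a protease that sheds surface proteins, by -0.61 ± 0.06.

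Among 23 genes of the immediate early and serum response, 12 were called higher (52.2%, against 24.8% of all genes) and 8 lower (34.8%, against 48.2%). NR4A2, an orphan nuclear receptor, went from 75.4 and 62.7 to 964 on both shFOXO33 arrays and to 738 and 800 with shFOXO707, a rise of 3.37 ± 0.09. KLF10 rose by 1.84 ± 0.05. IER3 and PHLDA1 changed by -1.52 ± 0.06 and -1.38 ± 0.06, and the response of IER3 with shFOXO707 minus that with shFOXO33 was -0.53 (limma, adjusted p = 0.0192).

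Of 26 genes of the unfolded protein and integrated stress response, 15 fell (57.7%, against 48.2% of all genes) and 4 rose (15.4%, against 24.8%). With centred arrays 10 fell and 7 rose, against 2659 lower and 2505 higher of all 7720 genes. CHAC1, a glutathione-degrading enzyme induced by ATF4, rose by 1.55 ± 0.13 and DNAJB9, a chaperone of the endoplasmic reticulum, by 1.30 ± 0.08. HERPUD1, SLC7A11 and PPP1R15A, of the same responses, fell, with changes from -1.44 to -1.37. Of 16 cholesterol synthesis genes 8 fell and 4 rose, where 48.2% and 24.8% of all genes did. The synthetic enzymes moved in either direction. MSMO1, HMGCS1, SC5D and HSD17B7 fell, with changes from -1.04 to -0.71, while IDI1, SQLE and EBP rose by 0.60, 0.24 and 0.13. INSIG1, which restrains the pathway, rose by 1.04 ± 0.09. In the glycolysis and hypoxia list 11 of 28 rose (39.3%, against 24.8% of all genes) and 9 fell (32.1%, against 48.2%). With centred arrays 16 rose and 4 fell, against 2505 higher and 2659 lower of all 7720 genes. ENO2, an enolase, rose by 1.73 ± 0.07 and EGLN1, the oxygen-sensing prolyl hydroxylase, by 1.71 ± 0.07, whereas SLC2A3, the glucose transporter GLUT3, went from 330 to 68.6 and 79.4 with shFOXO33 and from 1220 to 164 and 210 with shFOXO707. ENO2 started from 296 with shFOXO33 and 934 with shFOXO707 and reached 1540 and 1460 against 2210 and 2050, and its response with shFOXO707 minus that with shFOXO33 was -1.10 (limma, adjusted p = 0.000316).

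Interferon response genes included 5 of 12 that rose (41.7%, against 24.8% of all genes) and 4 that fell (33.3%, against 48.2%). USP18, a protease that removes ISG15, went from 31.0 and 112 to between 458 and 559, a rise of 2.77 ± 0.14, and IRF1, PSMB9 and TAP1 rose by 1.80, 1.48 and 1.06, while the RNA sensor RIGI fell by 1.69 (SE 0.11). Of 12 cytokine and NF-kB genes 3 rose (25.0%, close to the 24.8% of all genes) and 4 fell (33.3%, against 48.2%). NFKB1, a subunit of the factor, rose by 0.84 ± 0.09, and the subunits NFKB2 and RELA changed by -0.93 ± 0.24 and -0.54 ± 0.07, a split within the family. IL11 rose by 0.62 ± 0.18 in the mean, but went from 206 to 231 and 213 with shFOXO707, and its call was lost when the hairpins were pooled. Of 9 estrogen receptor targets, 4 rose (44.4%, against 24.8% of all genes) and 5 fell (55.6%, against 48.2%). Apart from MYB, NRIP1 and CELSR2 rose by 1.19 ± 0.09 and 0.90 ± 0.10, and RARA and XBP1 changed by -1.77 ± 0.13 and -0.92 ± 0.10.

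All 6 measured replication-dependent histone genes, of 18 listed, were called lower, against 48.2% of all genes. After median centring 4 of them were called lower, against 2659 of all 7720 genes. H2AC6 went from 221 to 61.5 and 60.2 with shFOXO33 and from 584 to 297 and 273 with shFOXO707, H2BC21 from 287 to 125 and 119 and from 999 to 524 and 530, and H2BC5 fell by 0.78 (SE 0.08). H1-2 and H2BC12 changed by -0.29 and -0.18, close to the shift of the whole table, and these 2 calls did not survive the centring. The calls of H1-2, H2BC12 and H2BC21 were lost when the hairpins were pooled. Many histone transcripts carry no poly(A) tail, which limits what an array prepared through the tail can show. Ribosomal protein genes moved little: 1 of 22 rose (4.55%, against 24.8% of all genes) and 5 fell (22.7%, against 48.2%). With centred arrays 10 rose and 0 fell (12 and 0 at an unadjusted p under 0.05, limma), against 2505 and 2659 of 7720 genes. No direction can therefore be given. RPL3 was at 12300 and 10500 without OHT and between 9120 and 11300 with it, and RPL35 at 8730 and 7510 and between 8270 and 9380, with the groups overlapping in both. Of 26 extracellular matrix genes 13 fell and 4 rose, where 48.2% and 24.8% of all genes did. The share that fell was thus close to that of all genes. With centred arrays 7 fell and 9 rose, against 2659 lower and 2505 higher of all 7720 genes. THBS1, TIMP3 and COL5A2, a thrombospondin, a protease inhibitor and a fibrillar collagen, changed by -1.07 ± 0.10, -1.11 ± 0.08 and -0.72 ± 0.07, the last a call that was lost when the hairpins were pooled.

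**Figure D2:**
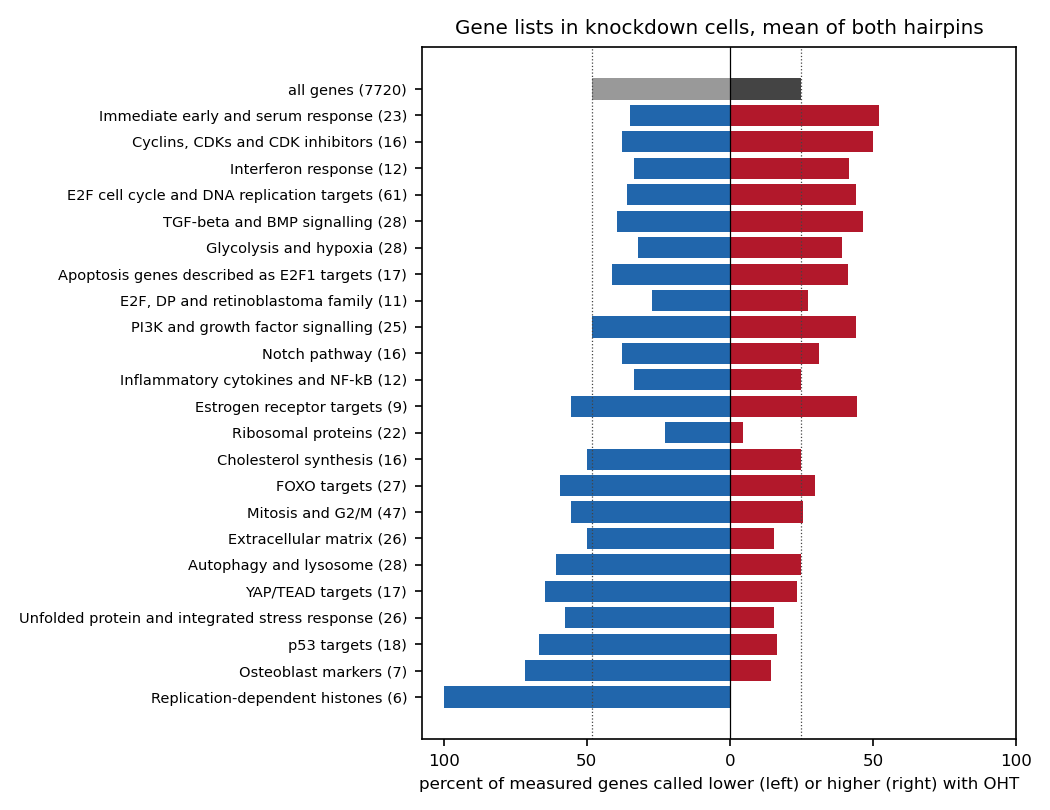
Percent of the measured genes of each list called higher (red, right) or lower (blue, left) with OHT in the mean of the hairpins, with the number of measured genes in brackets; lists with fewer than 6 measured genes are left out, and dotted lines mark all genes, 24.8% and 48.2%. The histone list has lower calls alone, and the balance of the ribosomal protein and extracellular matrix lists turns when arrays are centred on their medians (10 and 0, and 9 and 7). After that centring 2505 of all 7720 genes were called higher and 2659 lower.

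Among the cell type markers, the osteoblast list had 1 gene of 7 that rose (14.3%, against 24.8% of all genes) and 5 that fell (71.4%, against 48.2%). The decrease was also called with each hairpin alone for 3 genes, against 33.6% of all genes. The list includes SOX9, given above as the factor of the chondrocyte lineage. Besides TNFRSF11B and SOX9, COL1A1 fell by 0.31 (SE 0.04), and MSX2, a homeobox factor of the BMP response, went from 194 and 277 to between 537 and 713. SPARC, a bone matrix glycoprotein, behaved differently with each hairpin and is given next. The neural markers NEFL and TUBB3 rose by 0.66 and 0.14 and OLIG2 changed by -0.67, the call of TUBB3 being lost under several alternatives. Of the 4 epithelial markers the keratins KRT18 and KRT8 changed by -0.44 and -0.22, calls that were lost when the hairpins were pooled, and KRT7 and EPCAM changed by 0.10 ± 0.13 and 0.24 ± 0.12 without passing the test.

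The responses measured with the 2 hairpins, which share no array, were much alike. Across the 7720 genes they correlated at r = 0.932, and 4739 genes were called with shFOXO33 and 4894 with shFOXO707. Of the 5637 genes called in the mean, 35 had changes of opposite sign, and 11 were called in opposite directions with each hairpin. The difference of the responses was called for 172 genes: 81 (1.05%) were higher and 91 (1.18%) lower with shFOXO707. At an unadjusted p under 0.05 the difference had 1067 genes. The count depended on the error estimate: it was 73 in a fit of the 6 knockdown arrays alone and 97 without the shFOXO33 replicate 1 array with OHT.

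**Figure D3:**
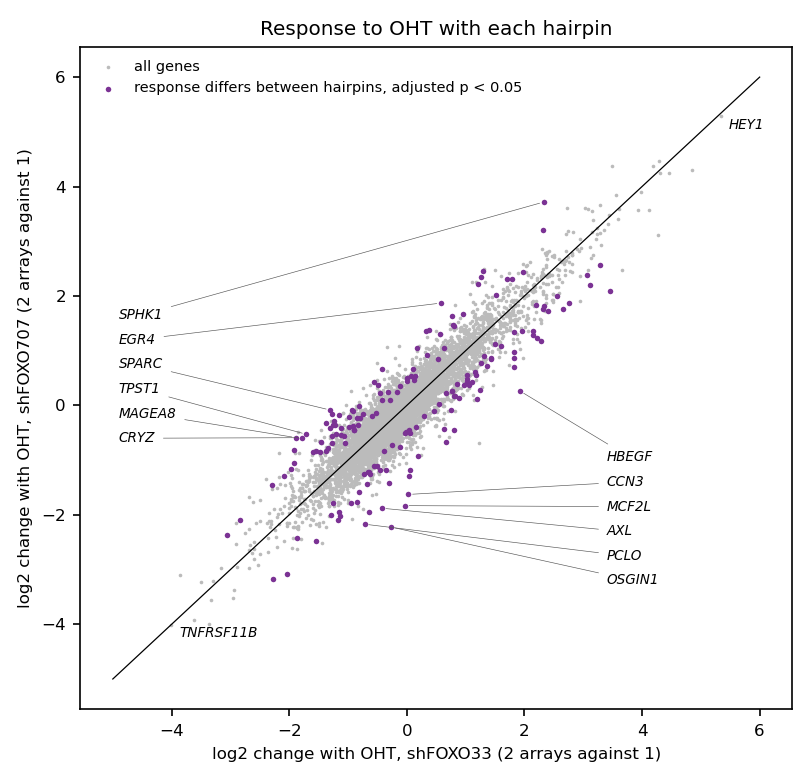
Log2 change with OHT for shFOXO33 (horizontal) and shFOXO707 (vertical), each 2 arrays against 1, for 7720 genes in grey and for the 172 genes whose responses were called different in purple; the line marks equal responses. HEY1 and TNFRSF11B lie near the line, and the other labelled genes are the 6 with the largest called difference on each side of it.

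The level without OHT often differed between the hairpins where the responses did. SPARC had a signal of 2010 without OHT and 777 and 832 with OHT for shFOXO33, and 8510 without and 8460 and 7610 with OHT for shFOXO707. It fell by 1.30 with shFOXO33 and changed by -0.08 with shFOXO707, a difference of 1.22 ± 0.10 (limma, adjusted p = 1.65e-05), and it changed by -0.06 in scrambled cells, where its mean signal was 9160 without and 8800 with OHT, so the shFOXO707 arrays were the ones that resembled the scrambled ones.

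SPHK1, the kinase that makes sphingosine 1-phosphate, had the largest positive difference, 1.39 ± 0.24, and began at similar levels: 134 rose to 744 and 732 with shFOXO33, and 152 to 2160 and 2230 with shFOXO707. The scrambled arrays reached a mean of 2560. EGR4, an immediate early factor, went from 51.2 to 72.2 and 98.5 with shFOXO33 and from 58.3 to 237 and 275 with shFOXO707. In 3 more genes the decrease was larger with shFOXO33. MAGEA8, a cancer-testis antigen, went from 534 to 131 and 134 with shFOXO33 and from 1290 to 878 and 829 with shFOXO707. CRYZ, a quinone reductase, went from 1360 to 440 and 336 and from 2120 to 1390 and 1430. TPST1, a protein-tyrosine sulfotransferase, went from 1220 to 332 and 396 with shFOXO33, and from 488 to 330 and 337 with shFOXO707, so that equal levels were reached from unequal ones.

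The same convergence was seen in several genes whose decrease was larger with shFOXO707. OSGIN1, an oxidative stress-induced growth inhibitor, had the largest such difference, -1.96 ± 0.31: it was at 148 without and 107 and 137 with OHT for shFOXO33, and at 486 without and 108 and 77.5 with OHT for shFOXO707. MCF2L, a guanine nucleotide exchange factor, and CCN3, a matricellular protein, fell with shFOXO707 alone. MCF2L went from 367 to 106 and 79.5 with shFOXO707 and from 72.4 to 83.2 and 59.3 with shFOXO33, and CCN3 went from 1080 to 332 and 344 and from 240 to 233 and 257. HBEGF, a growth factor of the EGF family, rose with shFOXO33, from 170 to 680 and 702, and stood at 434 before and 493 and 556 after OHT with shFOXO707. AXL and PCLO, a presynaptic scaffold protein, fell further with shFOXO707 and from a lower level. PCLO went from 10400 to 6180 and 6480 with shFOXO33 and from 3340 to 735 and 723 with shFOXO707. With the hairpins pooled, the mean changes of SPARC, MAGEA8, MCF2L, CCN3, AXL and PCLO were no longer called. The hairpins have 1 array each without OHT, so an error of that array would enter both its own level and the response.

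The response of knockdown cells was also close to that of scrambled cells, with which it shares no array. Across the 7720 genes the 2 responses correlated at r = 0.964, and their SD was 0.81 in knockdown and 0.92 in scrambled cells. In scrambled cells 2108 genes (27.3%) were called higher and 4177 (54.1%) lower. Of the 5637 genes called in knockdown cells, 5295 were called in the same direction in scrambled cells, which is 93.9% of the knockdown calls and 84.2% of the scrambled calls, and 20 were called in the opposite direction, none of them by more than 0.52 on the log2 scale in knockdown cells. Of the 1387 genes changed at least 2-fold, 1384 were called in the same direction in scrambled cells. The other 3, named after their values were seen, were ASB6, DRC4 and RNF170, which changed by -1.5, -1.65 and -1.04 in knockdown cells and changed by -0.33, -0.64 and -0.31 in scrambled cells without passing the test there.

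The difference between the responses was called for 748 genes, 383 (4.96%) higher and 365 (4.73%) lower in knockdown cells. The response was the smaller one in knockdown cells for 601 of them and the larger one for 147, and the responses had the same sign for 668. Among the 645 genes that rose at least 2-fold in knockdown cells, 450 had risen further in scrambled cells, as had 496 of the 742 that fell. The call depends on how the error is estimated. When both hairpins were given 1 common response, so that their disagreement counted as error, 299 genes were higher and 260 lower, and when the hairpins were pooled, so that their different levels counted too, 6 were higher and 21 lower. With each hairpin's own response set against the scrambled one, 96 genes were higher and 89 lower with both hairpins.

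Mitosis and G2/M genes stood out by their count in this difference. All 47 measured members had a more positive response in knockdown cells, against 55.1% of all genes. The difference was called for 32 of them, each higher, against 4.96% of all genes, and for 0 lower (limma; 40 and 0 at an unadjusted p under 0.05). It was called higher for 27 with shFOXO33 alone, 22 with shFOXO707 alone, 31 with 1 common response and 1 with the hairpins pooled. In scrambled cells 37 of these genes fell and 6 rose, against 54.1% and 27.3% of all genes. Their median there was -0.57, against -0.23 for all genes. In knockdown cells 26 fell (55.3%, against 48.2% of all genes) and 12 rose (25.5%, against 24.8%). Their median there was -0.23, close to the -0.20 of all genes. With centred arrays the knockdown counts were 21 and 20, against 2659 lower and 2505 higher of all 7720 genes. The median level of the list, relative to untreated scrambled arrays, was -0.02 and -0.15 on the knockdown arrays without OHT, between -0.24 and -0.37 on those with OHT and between -0.68 and -0.56 on scrambled arrays with OHT. The arrays with OHT of the 2 kinds of cell did not overlap. In RNA from whole cultures, fewer cells in mitosis and less RNA per cell cannot be told apart.

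ASPM, a spindle pole protein, had signals of 2100 and 1720 without OHT, 1080 and 1120 with shFOXO33 and OHT, and 808 and 761 with shFOXO707 and OHT. It changed by -1.02 ± 0.06, against -1.53 in scrambled cells, a difference of 0.51 ± 0.07 (limma, adjusted p = 0.000506). Its scrambled mean went from 1850 to 629, below every knockdown array. CENPF, a kinetochore protein, went from 2930 and 2030 to 1720 on both shFOXO33 arrays and to 1310 and 1380 with shFOXO707, a change of -0.68 ± 0.05 against -1.16 in scrambled cells, although a second probe set gave 0.05. CKS1B, a subunit bound to CDKs, changed by -0.71 ± 0.04, against -0.91. NUSAP1, a microtubule binder, was among those that rose, from 2920 and 2900 to between 4480 and 5000, and its rise of 0.71 ± 0.04 exceeded the 0.40 of scrambled cells. PRC1, which bundles spindle microtubules, rose by 0.82 ± 0.05 and by 0.69 in scrambled cells, a difference that was not called (limma, adjusted p = 0.191).

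Immediate early and serum response genes differed in the other direction. Of 23 members, 19 had a more negative response in knockdown cells, and the difference was called lower for 10, against 4.73% of all genes, and higher for 0 (limma; 13 and 2 at an unadjusted p under 0.05). With the hairpins pooled 2 were called lower, with shFOXO33 alone 5 lower and 1 higher, and with shFOXO707 alone 9 lower. The median level relative to untreated scrambled arrays was 0.12 and 0.16 on the knockdown arrays without OHT, between 0.31 and 0.42 on those with OHT and between 0.60 and 0.63 on scrambled arrays with OHT. EGR4 differed most of the list. Its signals on knockdown arrays, given above, reached at most 275, whereas the scrambled mean went from 31.6 to 401, and its response differed by -1.91 ± 0.19 in knockdown cells (limma, adjusted p = 4.57e-05). NR4A2 reached 964 or less in knockdown cells and a mean of 1200 in scrambled cells, a difference of -0.52 ± 0.11.

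**Figure D4:**
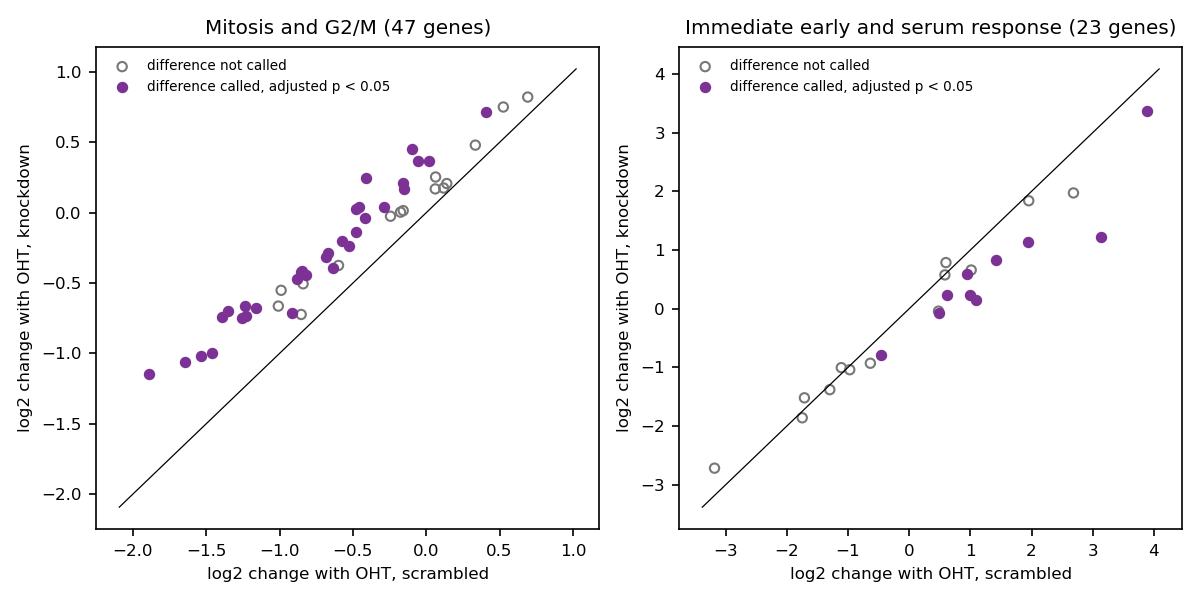
Log2 change with OHT in scrambled cells (horizontal) and in knockdown cells (vertical, mean of the hairpins) for each measured gene of the mitosis list (left, 47 genes) and the immediate early list (right, 23 genes); filled points are genes whose difference was called and the line marks equal responses. All 47 mitosis genes lie above the line and 19 of the 23 immediate early genes below it; with the hairpins pooled the calls drop to 1 and 2.

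**Figure D5:**
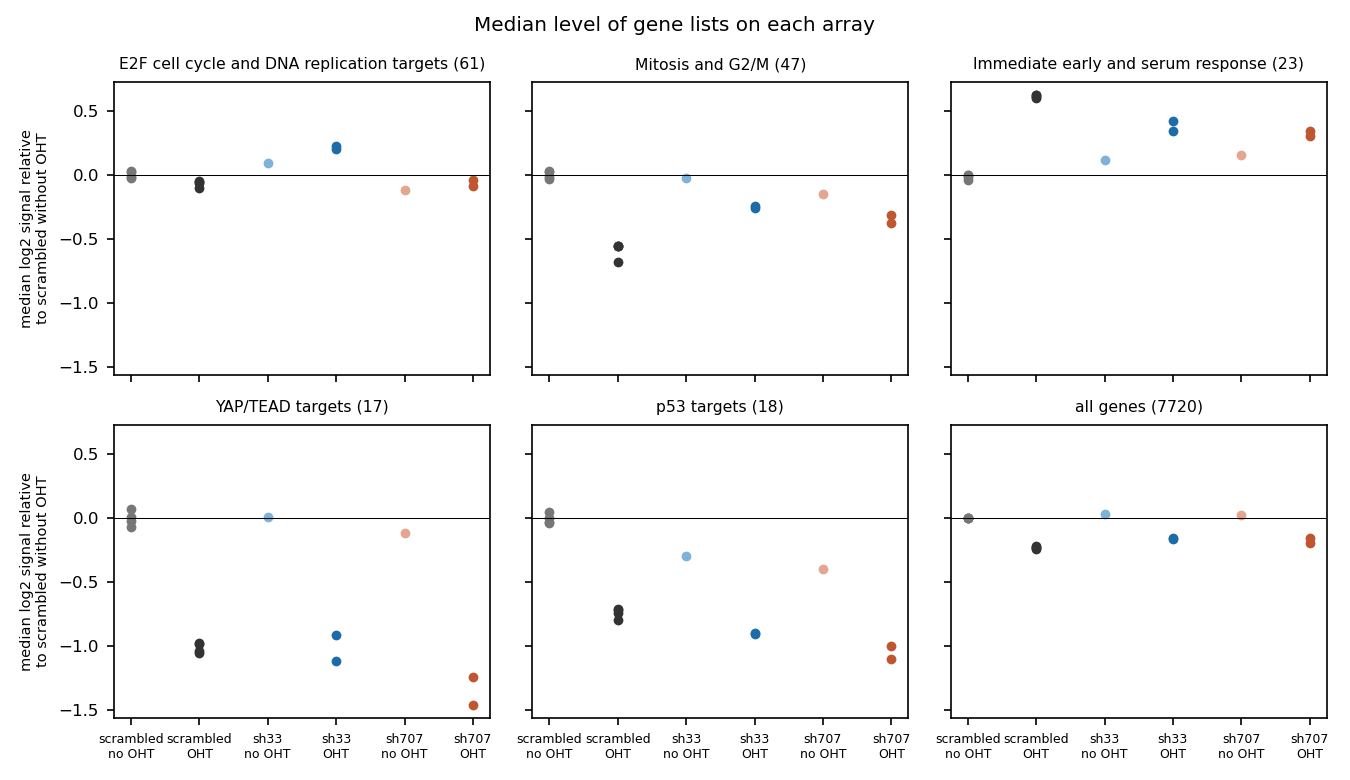
Median log2 signal of the genes of 5 lists and of all 7720 genes on each of the 14 arrays, relative to the mean of untreated scrambled arrays; each point is 1 array, grouped by virus and treatment. Mitosis genes with OHT lie between -0.37 and -0.24 on knockdown arrays and between -0.68 and -0.56 on scrambled arrays, and p53 targets are already below 0 on both knockdown arrays without OHT.

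Other lists held fewer genes with a called difference. It was called for 7 lower and 1 higher of the 28 TGF-beta and BMP genes, BMP2 and MSX2 (an osteoblast marker as well) among the lower ones at -0.45 and -0.70, while TGFBR2 was higher at 0.76. Of all genes 4.73% were called lower and 4.96% higher, and with 1 common response 5 of the list were called lower and 1 higher. It was called for 6 higher and 0 lower of the 61 E2F targets (limma; 17 and 1 at an unadjusted p under 0.05), CCNE1 among them, and for 4 higher and 0 lower of the 16 cholesterol synthesis genes (limma; 10 and 1 at an unadjusted p under 0.05), SC5D at 0.28 among them, against 4.96% and 4.73% of all genes. The 4 cholesterol synthesis calls became 2 with centred arrays, 3 with 1 common response and 1 with either hairpin alone. The 6 calls of E2F targets became 4 with 1 common response. In that list the hairpins did not act alike: 2 were called higher and 2 lower with shFOXO33 alone, and 7 higher and 0 lower with shFOXO707 alone.

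Single genes with the largest differences often began at another level in knockdown cells. ADAMTS1 was at 593 and 472 on the knockdown arrays without OHT and at a mean of 124 on scrambled ones, and reached 19.4 to 41.6 and a mean of 39.9 with OHT. Its response therefore differed by -2.15 ± 0.21 (limma, adjusted p = 4.84e-05), from unequal levels to similar ones. ASB6, a substrate adaptor of ubiquitin ligases, followed the same course, from 245 and 266 against a scrambled mean of 115 to between 56.2 and 97.9 against 88.1. DYNLRB1, a dynein light chain, had the largest positive difference, 1.32 ± 0.10. It stood at 2340 and 2650 without and between 1460 and 1950 with OHT in knockdown cells, whereas its scrambled mean went from 608 to 152, so the level was higher in knockdown cells at either state. HSD17B10, a mitochondrial dehydrogenase, was likewise at 2020 and 1530 without and between 1210 and 1820 with OHT, against scrambled means of 401 and 172. CCDC86, a nucleolar protein, was lower in knockdown cells without OHT, at 459 and 378 against a mean of 854, and was between 155 and 278 with OHT, against 187.

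DDIT4, an inhibitor of mTORC1, went from 633 and 349 to between 182 and 403, against scrambled means of 967 and 302, a difference of 0.92 ± 0.16. KRI1 and EPHB3 differed by 1.13 and 0.93 and did not change in knockdown cells beyond the test. Among the genes whose rise was smaller, CEBPA, a transcription factor of differentiation, went from 27 and 50 to between 201 and 315, against scrambled means of 21.2 and 446, a difference of -1.34 ± 0.40. Its untreated signals lay below the filter's signal of 79.1, the SD of the untreated scrambled arrays was 17.7, and the call was lost with 1 common response of both hairpins (limma, adjusted p = 0.066). HABP4, an RNA-binding protein, went from 87.4 and 115 to between 130 and 163, against means of 58.5 and 236, and FGD6, an exchange factor of CDC42, from 106 and 74.3 to between 237 and 334, against means of 46.0 and 354. In HABP4 and FGD6 the knockdown arrays without OHT lay above, and those with OHT below, the scrambled means. HEY1 showed the former without the latter: its 248 and 261 without OHT stood above a scrambled mean of 157, its levels with OHT were spread around the scrambled mean of 10500, and its response differed by -0.62 (limma, adjusted p = 0.000951). MAP3K5, PLCL2 and ANKRD1 differed by -0.28, 0.60 and 0.86.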

How the data were processed

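Signals of 14 arrays from U2OS ER-E2F1 cells were analysed. The authors deposited 1 linear intensity per probe set and array, computed by MAS5, per the submitters' processing notes (version not given in the sources used here), on each array. The table held 22277 probe sets, 62 of them controls. The probe annotation paired 19064 with 1 gene, 1043 with several and 2108 with none; 19052 symbols could be brought up to date through their Entrez identifiers. All columns had a sample. No array shared identical values with another.

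Intensities were taken as log2(signal + 16), so fold changes understate those of dim genes. Probe sets naming 1 gene were kept above the 40th percentile of mean log2 signal, a signal of 79.1, and the brightest probe set stood for each of 7720 genes. The arrays' number limits the precision. limma 3.58.1 in R 4.3.3 (lmFit, eBayes with a trend) was fitted to all 14 arrays in 6 groups with 8 residual degrees of freedom, and genes were called at a two-sided Benjamini-Hochberg adjusted p under 0.05 over all genes. Values of FOXO1, FOXO3, FOXO4, E2F1, HEY1 and TP73 probe sets that did not represent a gene came from a fit of 22215 probe sets. The error holds the spread between arrays of the same hairpin and not that between hairpins. The fit was tested on simulated data.

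Named genes were the 12 largest changes each way, called with each hairpin and without overlap; the 6 largest called each way in the hairpin difference and in the difference from scrambled cells; up to 5 members of each of 26 lists with the smallest p; and FOXO1, FOXO3, FOXO4, E2F1, CCNE1, CCNE2, CDC6, HEY1, MAP3K5, CDKN1B, BCL2L11, TP73, APAF1, CASP8, CCND1, CCND2, ANKRD1 and CCN2. The arrays, the lists and the rule were chosen with earlier results of these data known. Promoter stretches came from RefSeq (GRCh38.p14). Replicate numbers do not pair the arrays: the arrays without OHT of the hairpins carry none, and same-numbered scrambled arrays deviated together at r from -0.01 to 0.05. Alternatives were the scaling, the constant, the filter, the choice of probe set, the error model and leaving out each array. Normexp or other probe-level steps were not used here.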

Additional observations from a re-analysis of the deposited data

Results flagged for a closer look

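The response to OHT differed between the hairpins, by the test of the difference itself, for 24 of the 158 named genes. Of all 7720 genes 172 were called in this test. The named genes were picked by rules applied to these same data, so their share cannot be compared with that of all genes. The value in brackets is the response with shFOXO707 minus that with shFOXO33, on the log2 scale. It was negative for OSGIN1 (-1.96), MCF2L (-1.80), HBEGF (-1.67), CCN3 (-1.66), AXL (-1.46), PCLO (-1.45), USP18 (-1.38), ENO2 (-1.10), PMAIP1 (-0.93), CCND2 (-0.89), TGFBR2 (-0.54), IER3 (-0.53), CDC6 (-0.52), NDRG1 (-0.40), CCND3 (-0.36). It was positive for TFDP1 (0.42), BECN1 (0.58), CAT (0.71), TPST1 (1.18), CRYZ (1.19), SPARC (1.22), EGR4 (1.29), MAGEA8 (1.30), SPHK1 (1.39). Of these, 12 were named for the size of this difference.

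The response differed between knockdown and scrambled cells, by the test of the difference itself, for 49 of the named genes. Of all 7720 genes 748 were called in this test, and the same limit holds for the share. The value in brackets is the mean response with the hairpins minus the response of scrambled cells, on the log2 scale. It was negative for ADAMTS1 (-2.15), EGR4 (-1.91), CEBPA (-1.34), HABP4 (-1.30), ASB6 (-1.17), FGD6 (-1.09), CCND2 (-0.97), CHAC1 (-0.80), HBEGF (-0.73), SPHK1 (-0.72), MSX2 (-0.70), FOXO3 (-0.67), AXL (-0.66), SPARC (-0.64), IRS1 (-0.63), HEY1 (-0.62), JAG1 (-0.55), NR4A2 (-0.52), CRYZ (-0.50), PCLO (-0.48), BMP2 (-0.45), EGLN1 (-0.39), ABCG2 (-0.30), CCND1 (-0.29), MAP3K5 (-0.28), NDRG1 (-0.27), CCND3 (-0.19). It was positive for CKS1B (0.20), SC5D (0.28), NUSAP1 (0.31), TIMP3 (0.48), CENPF (0.49), ASPM (0.51), CCNE1 (0.51), E2F8 (0.52), ARID5B (0.54), SLC2A3 (0.57), PLCL2 (0.60), NOTCH2 (0.69), MCF2L (0.76), TGFBR2 (0.76), ANKRD1 (0.86), RIN2 (0.89), DDIT4 (0.92), EPHB3 (0.93), HSD17B10 (0.94), CCDC86 (1.10), KRI1 (1.13), DYNLRB1 (1.32). Of these, 12 were named for this difference. With 1 common response of both hairpins 34 of the 49 were still called. The other 15 were ABCG2, AXL, CCND1, CCND3, CEBPA, CKS1B, CRYZ, HBEGF, MAP3K5, MCF2L, NDRG1, PCLO, SLC2A3, SPARC and SPHK1, and in 5 of these, AXL, CRYZ, HBEGF, MCF2L and PCLO, the hairpins' own differences from scrambled cells had opposite signs. How many of these differences depend on the arrays without OHT, of which each hairpin has 1, was not tested.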

How the results depend on the processing

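Without probe sets whose names end in _x_at or _s_at, which leaves fewer genes, 3451 genes were called with OHT in the mean of the hairpins in place of 5637, 2912 with shFOXO33, 3010 with shFOXO707 and 3814 in scrambled cells, 96 in the hairpin difference and 439 in the difference between knockdown and scrambled cells. The 172 calls of the hairpin difference became 108 without a trend in the variance prior, 73 in the fit of the 6 knockdown arrays and 89 with arrays numbered 1 and 2 only. The 748 calls of the difference from scrambled cells became 27 with the hairpins pooled, 492 for shFOXO707 alone and 370 with arrays numbered 1 and 2 only; pooling and fewer arrays raise the error by construction. Leaving out each array in turn gave from 5434 to 5679 calls in the mean, 4333 to 4769 with shFOXO33, 4339 to 4933 with shFOXO707, 6126 to 6279 in scrambled cells, 97 to 198 in the hairpin difference and 589 to 745 in the difference from scrambled cells. A replicate block could be fitted in scrambled cells alone, where it gave 6274 calls in place of 6285; the pairing was not borne out by the arrays. No paired analysis was possible for the hairpins because their arrays without OHT carry no number. Of 4165 values of the 158 named genes under the alternatives, 4096 kept their direction and their side of the threshold, 51 were no longer called, 14 were newly called and 4 reversed. The reversed values were 0.028 for CCN3 with shFOXO33 alone, and 0.047, 0.029 and 0.047 for RPL18, RPL3 and RPS9 with centred arrays; the cause was not tested. Centring or quantile normalization moved the balance of higher and lower calls in the mean, as given with the counts. Signals under the constant of 16 have no reliable order, and no detection call was used.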
